A study of Homo sapiens with 8 samples.

Results

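The genes described here make bile acids, carry them across the hepatocyte membrane and report their level back to the synthesis enzymes. Chosen by their role in this pathway, they are 10 of the 38032 gene identifiers in the files: CYP7A1, CYP8B1, CYP27A1 and CYP7B1 for synthesis, ABCB11 and SLC10A1 for transport, and NR1H4, NR0B2, FGF19 and FGFR4 for feedback. RNA came from HepG2, a cell line derived from a human liver carcinoma, labelled as wild type and drawn from 1 pool of cells grown on flat plastic. The 4 2D-primed libraries came from cells kept for 8 days on standard flat culture-ware, and the 4 3D-primed libraries from cells kept for 8 days on Alvetex Strata, an inert porous polystyrene scaffold. Both groups received the same medium with foetal bovine serum and no further agent, and both were lifted with trypsin before lysis. According to the methods, fewer cells were seeded per well in 2D, so culture geometry and seeding density cannot be told apart. The labels number the libraries of each group 1 to 4, but nothing states that they came from separate cultures, so the p-values measure only the spread between these samples, which may be technical. The libraries held 21599630, 23659259, 25019499 and 23947737 estimated counts for 2D-primed replicates 1 to 4, and 26682128, 22153063, 27844077 and 24616133 for 3D-primed replicates 1 to 4.

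As background, hepatocytes turn cholesterol into bile acids by a classical route, which CYP7A1 opens in the endoplasmic reticulum, and by an alternative route, which CYP27A1 opens in the mitochondria. Bile acids bind the nuclear receptor FXR, the product of NR1H4, which raises the repressor SHP, the product of NR0B2, and the export pump ABCB11. In the ileum FXR induces the hormone FGF19, which reaches the liver and signals through the receptor FGFR4 and its partner β-Klotho, the product of KLB, to lower CYP7A1.

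Of the 10 genes, 8 reached 10 counts in 2 or more libraries and were tested, and SLC10A1 and FGF19 did not. The groups were compared by edgeR's quasi-likelihood test over the 13943 genes that passed the same filter, with Benjamini-Hochberg adjustment over all of them and a threshold of 0.05. Values are CPM, counts relative to library size, after TMM scaling, given as mean ± SD with n = 4, and log2 fold changes (log2FC) are 3D-primed over 2D-primed with their standard error (SE). CYP7A1, CYP8B1, CYP27A1, CYP7B1, NR1H4 and NR0B2 rose in 3D-primed cells, ABCB11 and FGFR4 were not called, and none of the 8 fell. Over all genes tested, 63.9% were called in either direction, 32.4% higher in 3D-primed cells and 31.6% higher in 2D-primed cells. A difference was thus the rule in these libraries, and 59.8% of all genes tested had groups that did not overlap. A difference of at least 2-fold was less common, with 4.86% of all genes tested called higher in 3D-primed cells by that much and 7.01% in the 2D-primed direction. CYP7A1, CYP8B1, NR1H4 and NR0B2 were among these 4.86%, as was CYP7B1, a gene that could pass the filter only through the 3D-primed libraries. The plot of CPM by library shows all 10 genes.

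**Figure D1:**
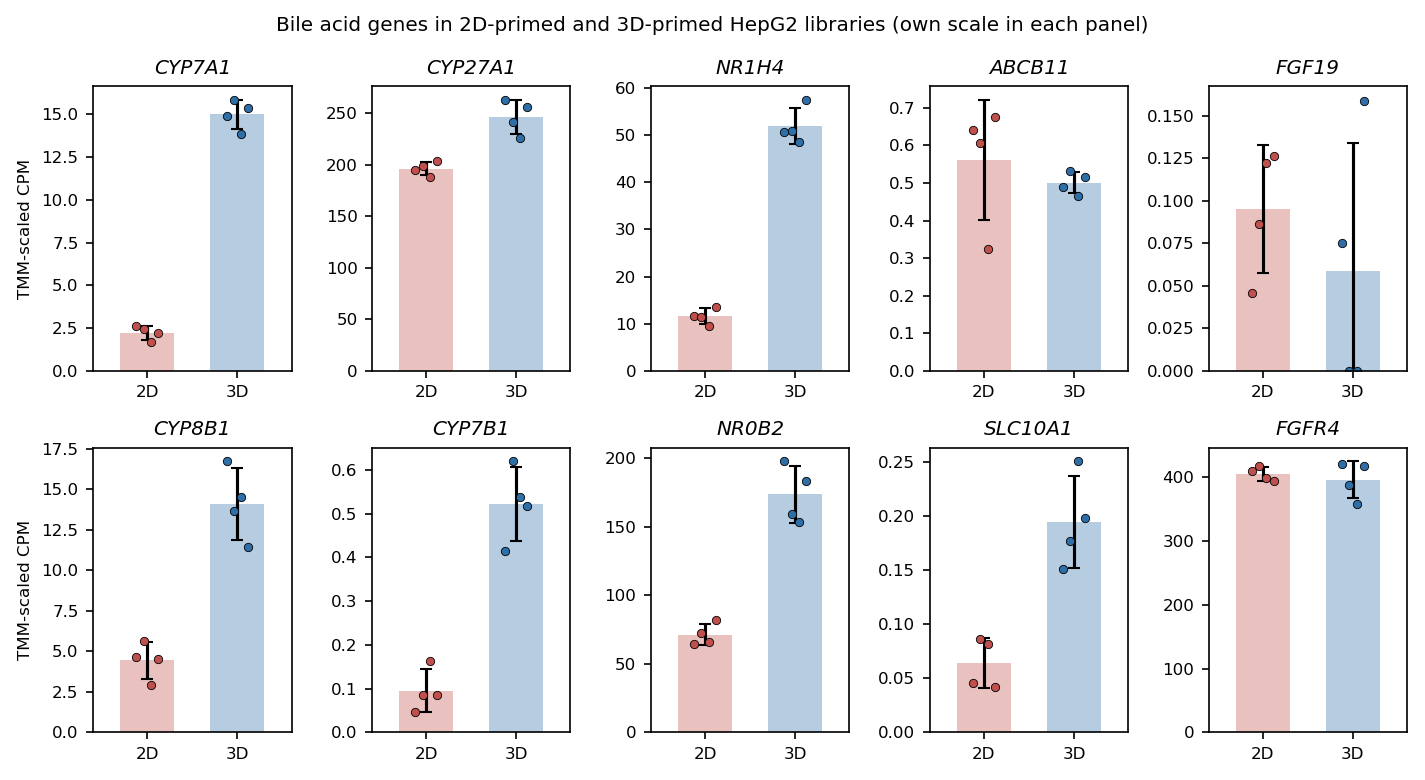
CPM after TMM scaling for each of the 10 genes, on a linear axis of its own from 0, with 1 point per library, 4 2D-primed (red) and 4 3D-primed (blue), a bar for the group mean and whiskers for the SD. The groups lie apart for CYP7A1, CYP8B1, CYP27A1, CYP7B1, NR1H4, NR0B2 and SLC10A1, and overlap for ABCB11, FGF19 and FGFR4.

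CYP7A1, the rate-limiting enzyme of the classical route, lies on chromosome 8 of GRCh38 from 58490178 to 58500163 on the minus strand. It was measured at 2.61, 2.42, 1.67 and 2.24 CPM in 2D-primed replicates 1 to 4, from 41 to 57 counts. In 3D-primed replicates 1 to 4 it was at 14.9, 15.9, 13.8 and 15.4 CPM, from 358 to 395 counts. Every 3D-primed library stood above every 2D-primed library, and the gap was many times the spread within either group. The mean rose from 2.23 ± 0.407 to 15.0 ± 0.860 CPM, a log2 fold change of 2.75 (SE 0.120, 95% interval 2.48 to 3.01) or 6.71-fold, at an edgeR adjusted p of 5.8e-08. Among all genes tested, 64 had a larger log2 fold change.

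CYP8B1, the hydroxylase that directs the classical route towards cholic acid, lies on chromosome 3 from 42856005 to 42875898. Its 2D-primed libraries held 4.63, 5.66, 2.93 and 4.56 CPM and its 3D-primed libraries 16.7, 13.7, 14.5 and 11.4 CPM. The groups did not overlap, though the spread was wider than for CYP7A1 in both. CYP8B1 rose by 1.67 on the log2 scale (SE 0.179, 95% interval 1.27 to 2.07), which is 3.18-fold (edgeR adjusted p = 1.7e-05).

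CYP27A1, the mitochondrial sterol side-chain hydroxylase that opens the alternative route, lies on chromosome 2 from 218781749 to 218815293. It was already abundant in 2D-primed cells, at 195, 199, 188 and 204 CPM, and stood at 263, 241, 226 and 256 CPM in 3D-primed cells. The groups were apart, but the difference was small beside that of the classical enzymes. CYP27A1 rose by 0.33 on the log2 scale (SE 0.0521, 95% interval 0.21 to 0.45), which is 1.26-fold (edgeR adjusted p = 0.00028).

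CYP7B1, the oxysterol hydroxylase that follows CYP27A1 in the alternative route, lies on chromosome 8 from 64587763 to 64798737. It was close to the lower limit of the data, with 1, 2, 4 and 2 counts in the 2D-primed libraries and 11, 14, 15 and 13 counts in the 3D-primed libraries. No 2D-primed library reached the filter's 10 counts, so the gene could enter the test only because it was higher in 3D-primed cells. Its log2 fold change of 2.38 (SE 0.409) is therefore given as a description of a scarce transcript.

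Ratios of 2 genes within a library do not depend on how libraries are scaled, and they test whether the genes changed unequally. They were computed as log2 of counts plus 0.5. The log2 ratio of CYP7A1 to CYP27A1 was -6.21, -6.35, -6.80 and -6.49 in 2D-primed replicates 1 to 4 and -4.14, -3.93, -4.03 and -4.06 in 3D-primed replicates 1 to 4. The first enzyme of the classical route thus gained 5.37-fold on that of the alternative route, a log2 difference of 2.42 (two-sided exact permutation test, p = 0.029). Within the classical route the log2 ratio of CYP8B1 to CYP7A1 went from 0.97 ± 0.195 to -0.10 ± 0.270 (SD, n = 4), a difference of -1.07 with groups that did not overlap (exact permutation p = 0.029). The log2 ratio of CYP7B1 to CYP27A1 differed by 1.97, which is given without a test because the filter admitted CYP7B1 only through the 3D-primed libraries. That size rests on the 1 to 4 counts of CYP7B1 in 2D-primed cells and is 1.43 with 2 added in place of 0.5. The p of 0.029 is the smallest that 4 libraries against 4 can give, and it did not move on Benjamini-Hochberg adjustment over the 4 ratios tested, which leave out that of CYP7B1. The plot of ratios by library shows all 5.

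**Figure D2:**
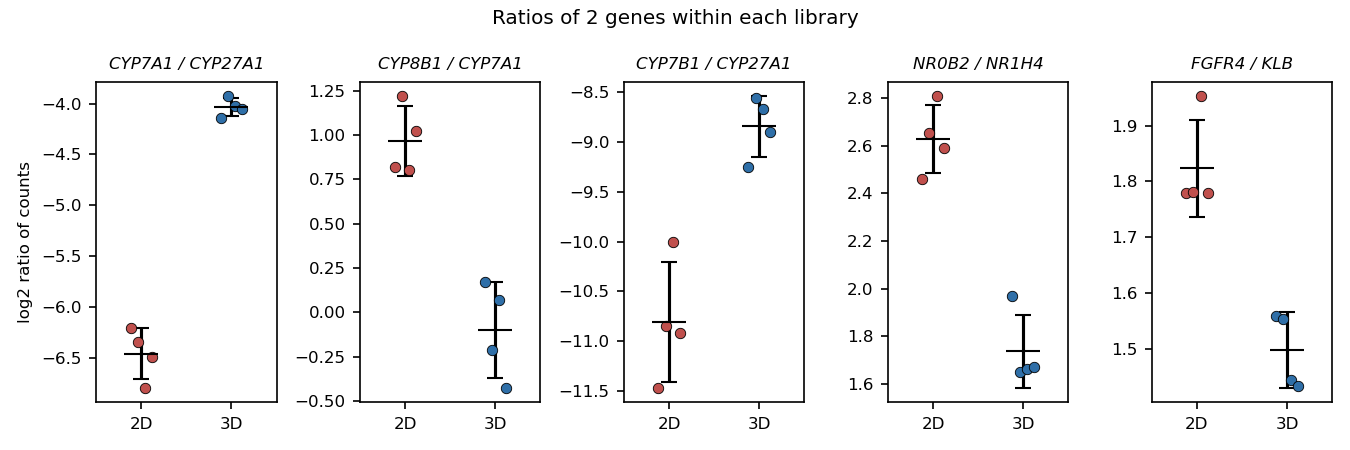
Log2 ratio of the counts of 2 genes within each library, with 1 point per library, 4 2D-primed and 4 3D-primed, a line at the group mean and whiskers for the SD, for 5 pairs of genes on axes of their own. No pair has overlapping groups, and the log2 difference runs from -1.07 for CYP8B1 over CYP7A1 to 2.42 for CYP7A1 over CYP27A1.

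Other enzymes and carriers of bile acid synthesis, from cholesterol supply and minor hydroxylations to conjugation, form a list of 17 genes, of which 14 were tested. In 3D-primed cells 7 rose and 2 fell, 5 were not called, and the median log2 fold change was 0.25, beside 0.01 over all genes tested. Of those tested, 50% were called higher in 3D-primed cells and 64.3% in either direction, beside 32.4% and 63.9% of all genes tested. AKR1D1, the reductase of the sterol ring, rose from 8.69 ± 1.33 to 30.1 ± 3.49 CPM, a log2 fold change of 1.79 (SE 0.120, adjusted p = 6.9e-07). STAR, which moves cholesterol into mitochondria, rose from 1.57 ± 0.201 to 6.46 ± 0.979 CPM, a log2 fold change of 2.04 (SE 0.153, adjusted p = 1.4e-06). The peroxisomal steps that shorten the side chain gave a mixed picture. ACOX2, the oxidase of that chain, rose by 1.07 on the log2 scale (SE 0.0698, adjusted p = 5.9e-07), and SLC27A2, an acyl-CoA synthetase, by 1.03 (SE 0.0695, adjusted p = 7.2e-07). HSD17B4, the next enzyme, rose by 0.81 (adjusted p = 3.0e-06), while the racemase AMACR stood at 23.4 ± 1.99 and 22.3 ± 1.54 CPM in the 2 groups (adjusted p = 0.41). The conjugation step was likewise divided. SLC27A5, the bile acid CoA ligase, rose by 0.97 on the log2 scale (adjusted p = 1.2e-05), whereas BAAT, which joins the acid to glycine or taurine, fell by 0.51 (SE 0.167, adjusted p = 0.021) with overlapping groups. The call of BAAT was lost without 2D-primed replicate 1, 2D-primed replicate 2 or 3D-primed replicate 4, with adjusted p up to 0.064. HSD3B7, which acts directly after CYP7A1, fell from 45.3 ± 1.23 to 36.0 ± 2.75 CPM, by 0.33 on the log2 scale (adjusted p = 0.00038). ACOT8, a peroxisomal thioesterase, rose by 0.27 (adjusted p = 0.023), a call lost under DESeq2 and without 2D-primed replicate 2 or 3D-primed replicate 1, with adjusted p up to 0.065. CYP39A1, CYP46A1 and CH25H, which hydroxylate oxysterols or cholesterol in minor routes, were under the filter.

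NR1H4, which encodes the bile acid receptor FXR, lies on chromosome 12 from 100473708 to 100564414 on the plus strand. It was at 11.7, 11.5, 9.44 and 13.6 CPM in 2D-primed replicates 1 to 4 and at 50.6, 50.9, 48.6 and 57.5 CPM in 3D-primed replicates 1 to 4. The lowest 3D-primed library stood far above the highest 2D-primed library. NR1H4 rose by 2.17 on the log2 scale (SE 0.0962, 95% interval 1.95 to 2.38), which is 4.49-fold, at an edgeR adjusted p of 6.3e-08, and 128 of the genes tested had a larger log2 fold change.

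NR0B2, which encodes the repressor SHP, lies on chromosome 1 from 26911489 to 26913975. Its libraries held 64.7, 72.4, 66.3 and 82.0 CPM in 2D-primed and 198, 159.6, 154 and 183 CPM in 3D-primed cells. All 3D-primed libraries exceeded all 2D-primed libraries. NR0B2 rose by 1.28 (SE 0.0958, 95% interval 1.07 to 1.50), which is 2.43-fold (edgeR adjusted p = 1.4e-06). CYP7A1 and its repressor's transcript were thus both higher in 3D-primed cells. NR0B2 changed less than NR1H4, and their log2 ratio went from 2.63 ± 0.144 to 1.74 ± 0.154 (SD, n = 4), a difference of -0.89 (exact permutation p = 0.029).

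**Figure D3:**
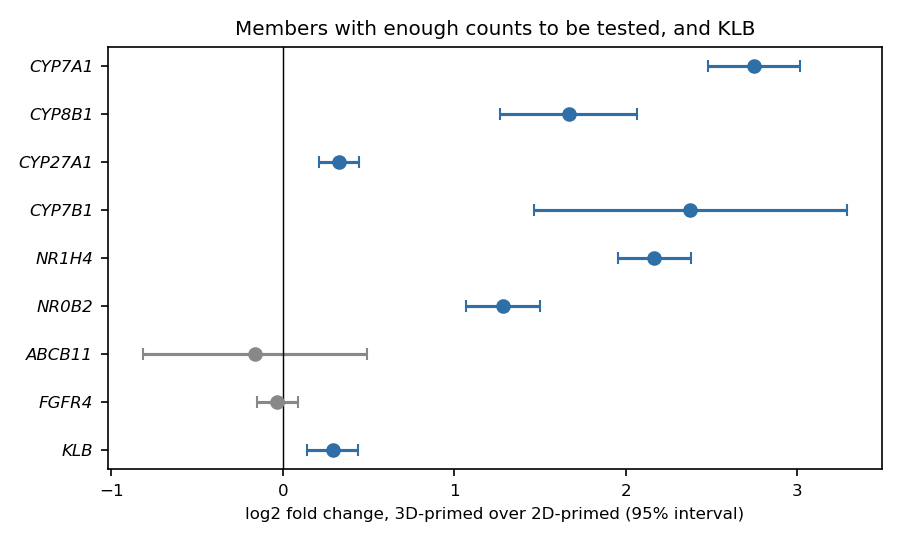
Log2 fold change of the 8 tested genes and KLB, 3D-primed over 2D-primed, blue where called and grey where not, with bars for the 95% interval of the edgeR fit and 4 libraries per group. CYP7A1, at 2.75, and NR1H4, at 2.17, lie far from 0, and the intervals of ABCB11 and FGFR4 cross 0. CYP7B1, at 2.38, passed the filter only through the 3D-primed libraries, so its point and interval are a description only.

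Among 20 other regulators of bile acid synthesis, 17 were tested, of which 4 were called higher and 9 lower in 3D-primed cells, with a median log2 fold change of -0.17. The shares called were 23.5% higher in 3D-primed cells and 76.5% in either direction, beside 32.4% and 63.9% of all genes tested. RXRA, a partner of FXR on DNA, fell from 156 ± 8.07 to 114 ± 7.24 CPM (log2FC -0.45, adjusted p = 4.2e-05), opposite in direction to NR1H4. RXRB and RXRG, the other genes of that family, were under the filter. PPARA, the fatty acid receptor, fell by 0.58 (SE 0.0567, adjusted p = 9.1e-06), and MAFG, a repressor of bile acid synthesis genes that FXR induces, fell by 0.48 (SE 0.0497, adjusted p = 1.4e-05). NR1H3, the oxysterol receptor LXRα, rose from 11.9 ± 0.277 to 18.7 ± 0.705 CPM, by 0.64 on the log2 scale (SE 0.0514, adjusted p = 2.2e-06). S1PR2, a membrane receptor for conjugated bile acids, rose by 1.12 (adjusted p = 0.00036) from 1.21 ± 0.172 CPM. NR5A2, the receptor LRH-1 that activates CYP7A1 and that SHP binds, was at 3.07 ± 0.541 and 2.99 ± 0.393 CPM (SD, n = 4; edgeR adjusted p = 0.85). Of the 13 calls in this list, that of NCOA1 was lost under 9 of the 17 alternatives, with adjusted p up to 0.14.

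A list of 19 genes known to respond to FXR in liver cells, all tested, held 11 that rose and 7 that fell in 3D-primed cells, with a median log2 fold change of 0.41. As shares, 57.9% were called higher in 3D-primed cells and 94.7% in either direction, beside 32.4% and 63.9% of all genes tested. Whether the list differs from all genes was not tested. The counts, shares and median include SLCO1B3, which had at most 7 counts in 2D-primed libraries and passed the filter only through the 3D-primed libraries. The fibrinogen chain genes FGA, FGB and FGG had the smallest p-values of the list, with log2 fold changes of 1.69, 1.55 and 1.77 (adjusted p = 7.9e-09, 2.2e-08 and 7.9e-09). They lie together on chromosome 4 from 154563011 to 154612967, and the authors had already reported them as higher in 3D-primed cells. UGT2B4, which conjugates bile acids with glucuronic acid and has close relatives between which reads may be divided, rose from 8.81 ± 1.30 to 27.8 ± 1.41 CPM (log2FC 1.66, adjusted p = 2.2e-07). The lipoprotein genes PLTP and APOC2 rose by 0.72 (adjusted p = 2.1e-06) and 0.48 (adjusted p = 6.5e-06). SULT2A1, a bile acid sulphotransferase, rose by 0.55 (adjusted p = 0.00017). The genes that fell included VLDLR, a lipoprotein receptor, at -1.04 (adjusted p = 3.2e-05), FETUB, a plasma protease inhibitor, at -0.63 (adjusted p = 0.0023), and C3, a complement protein, at -0.30 (adjusted p = 0.00035). The list therefore moved in both directions, and SDC1 stood uncalled. It was not divided by the direction in which each gene responds to FXR. The call of KNG1, higher in 3D-primed cells, was lost without 2D-primed replicate 3 or 3D-primed replicate 2, with adjusted p up to 0.062.

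ABCB11, the bile salt export pump of the canalicular membrane, lies on chromosome 2 from 168915498 to 169031324 on the minus strand. It was scarce in both groups, with 14, 14, 8 and 16 counts in 2D-primed and 13, 12, 13 and 13 counts in 3D-primed replicates 1 to 4. The groups overlapped, and no direction could be read. The log2 fold change was -0.16 (SE 0.293, 95% interval -0.81 to 0.49, edgeR adjusted p = 0.65), an interval that does not include the size of the change of NR1H4 or NR0B2. ABCB11 is shown with its promoter because it is a known direct target of FXR, and its window alone among those matched held the motif given below. Whether the activity of FXR differed between the groups was not tested. In the RefSeq promoter table of GRCh38.p14, which matched 5 of the 10 genes (CYP27A1, NR1H4, ABCB11, SLC10A1 and FGFR4), the window from 250 bases before to 50 bases after the start of ABCB11 spans chr2:169031275-169031574. It is printed on the minus strand, 5′ to 3′, with the match to the motif of FXR in capitals.
ABCB11: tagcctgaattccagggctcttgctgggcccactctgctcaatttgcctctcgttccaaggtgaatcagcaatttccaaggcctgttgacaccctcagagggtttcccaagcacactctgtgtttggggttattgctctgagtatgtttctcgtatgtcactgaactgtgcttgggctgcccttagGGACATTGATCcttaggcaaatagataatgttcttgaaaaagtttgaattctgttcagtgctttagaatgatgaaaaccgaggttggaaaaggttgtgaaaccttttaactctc

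This motif, known as IR1, is a pair of inverted nuclear receptor sites with 1 base between them. It was searched on both strands, and 0.920% of the 35116 promoter windows in the table hold it. In ABCB11 the match GGACATTGATC begins at -64 bases from the start. The windows of the other 4 matched genes do not hold these letters, nor do any of the 5 genes' windows hold CAAGGNCA, the monomer site of the NR5A type, or CAAAGTCCA, the site of the HNF4 type, which occur in 5.28% and 0.384% of all windows. A match is a description of the letters only.

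SLC10A1, the sodium-dependent uptake carrier NTCP, lies on chromosome 14 from 69775416 to 69797241. It was counted 1, 2, 2 and 1 times in 2D-primed and 4, 4, 7 and 5 times in 3D-primed replicates 1 to 4. The sums were 6 and 20, the groups did not overlap, and no library reached 10 counts, so the gene was not tested.

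Of 16 other transporters of bile acids and biliary lipids, 13 were tested, and 5 were called in each direction, with a median log2 fold change of 0.09. Each 5 is 38.5% of those tested, beside 32.4% of all genes called higher and 31.6% called lower in 3D-primed cells. The lipid exporters of the canalicular membrane rose. ABCG8 went from 12.5 ± 1.89 to 26.2 ± 1.17 CPM (log2FC 1.06, SE 0.0964, adjusted p = 5.3e-06), and its partner ABCG5, with which it exports sterols, from 6.73 ± 0.556 to 11.98 ± 0.552 CPM (0.83, SE 0.0771, adjusted p = 6.1e-06). ABCB4, the phosphatidylcholine floppase, rose by 0.41 (adjusted p = 0.00038). Among the exporters of conjugated organic anions ABCC3 and ABCC2 fell, ABCC3 of the basolateral membrane from 40.5 ± 4.49 to 22.2 ± 2.19 CPM (log2FC -0.87, SE 0.0899, adjusted p = 1.4e-05) and ABCC2 of the canalicular membrane from 343 ± 25.8 to 267 ± 21.8 CPM (-0.36, adjusted p = 0.00097). ABCC4, another of these exporters, was at 13.4 ± 1.02 and 12.7 ± 0.934 CPM in the 2 groups and was not called (adjusted p = 0.39). The subunits of the basolateral bile acid exporter moved apart, SLC51B rising by 1.11 (SE 0.200, adjusted p = 0.00065) from 2.29 ± 0.627 CPM and SLC51A falling from 30.9 ± 1.50 to 22.5 ± 4.67 CPM (-0.46, adjusted p = 0.0085). ATP8B1, the canalicular phospholipid flippase, fell by 0.57 (adjusted p = 0.00035). SLCO1B3, an uptake carrier with a close relative in SLCO1B1, had 2, 7, 2 and 0 counts in 2D-primed and 27, 15, 19 and 19 counts in 3D-primed libraries, and it could pass the filter only through the latter. It is 1 of the 5 called higher, and the share and median of the list include it. SLCO1B1 and the ileal genes SLC10A2 and FABP6 were under the filter.

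**Figure D4:**
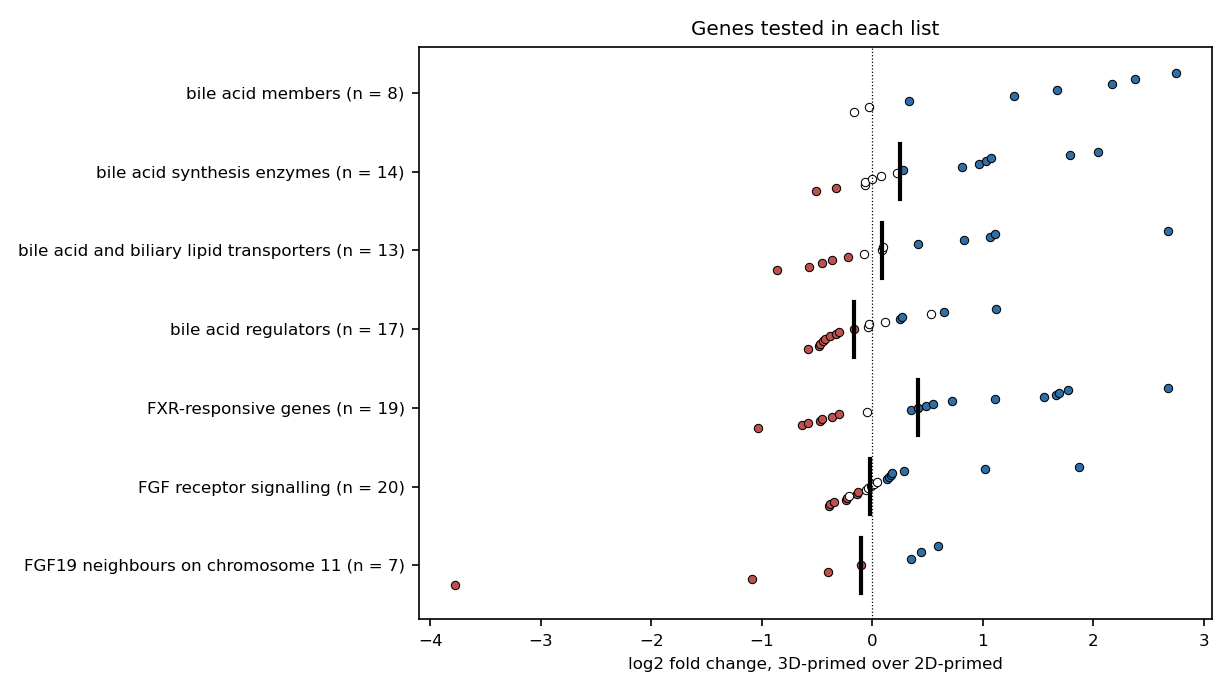
Log2 fold change, 3D-primed over 2D-primed, of every tested gene of each list, with 1 point per gene, blue where the edgeR test called it higher and red where it called it lower in 3D-primed cells and white where it did not call it, and a vertical bar at the median of each of the 6 lists of other genes. Genes lie on both sides of 0 in each of the 6 lists, whose medians run from -0.17 for regulators to 0.41 for FXR-responsive genes.

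FGF19, the hormone of the feedback loop, lies on chromosome 11 from 69698238 to 69704022. It was counted 1, 2, 3 and 3 times in 2D-primed and 2, 0, 0 and 4 times in 3D-primed replicates 1 to 4. The groups overlapped, the sums were 9 and 6, and a difference was not detectable at this depth. A count of 0 allows up to 3 counts, which is 0.133 CPM in 3D-primed replicate 2 and 0.108 CPM in 3D-primed replicate 3, and these limits cover counting error only.

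FGFR4, the liver receptor for FGF19, lies on chromosome 5 from 177086905 to 177098144. It was abundant, at 409, 418, 399 and 394 CPM in 2D-primed and 421, 388, 359 and 417 CPM in 3D-primed replicates 1 to 4. The groups overlapped, with every 2D-primed value inside the range of the 3D-primed values. The log2 fold change was -0.03 (SE 0.0534, 95% interval -0.15 to 0.09, edgeR adjusted p = 0.61), and its sign turned, to 0.017 with upper quartile scaling and 0.0047 without 3D-primed replicate 3. KLB, which encodes the co-receptor β-Klotho, rose from 115 ± 8.21 to 140.3 ± 10.7 CPM, by 0.29 on the log2 scale (SE 0.0660, 95% interval 0.14 to 0.44, edgeR adjusted p = 0.0029). The log2 ratio of FGFR4 to KLB fell from 1.82 ± 0.0864 to 1.50 ± 0.0676 (SD, n = 4), a difference of -0.33 (exact permutation p = 0.029).

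The list of FGF receptor signalling held 22 genes, KLB among them, of which 20 were tested, with 7 called in each direction and a median log2 fold change of -0.02. That is 35% called in each direction, beside 32.4% of all genes called higher and 31.6% called lower in 3D-primed cells. FGFR1, a receptor for other FGFs, rose from 41.6 ± 0.646 to 84.5 ± 13.6 CPM (log2FC 1.02, SE 0.0988, adjusted p = 8.2e-06), and FGFR2 from 1.07 ± 0.325 to 3.91 ± 1.12 CPM (1.87, SE 0.265, adjusted p = 0.00013). FGFR3 was at 278 ± 8.41 and 282 ± 16.1 CPM (SD, n = 4; edgeR adjusted p = 0.74). Downstream of the receptors, the exchange factor gene SOS1 fell from 115 ± 3.30 to 90.1 ± 4.50 CPM (-0.35, adjusted p = 5.7e-05). Among the feedback inhibitors of the pathway, SPRY2 and SPRED1 fell by 0.23 and 0.24 on the log2 scale (adjusted p = 0.012 and 0.017) and SPRED2 rose by 0.13 (adjusted p = 0.014), calls that held under all 17 alternatives. The calls of DUSP6, SPRY1 and ETV4 were each lost under 5 or more of the 17 alternatives, with adjusted p up to 0.075, 0.17 and 0.12. FGF21, a hormone that also uses KLB, had 0 counts in all 2D-primed and 2 to 4 counts in 3D-primed libraries and was not tested.

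Of 10 genes that flank FGF19 on chromosome 11, 7 were tested, of which 3 were called higher and 4 lower in 3D-primed cells, with a median log2 fold change of -0.10. All 7 were thus called, where 63.9% of all genes tested were. CCND1, which encodes the cell cycle regulator cyclin D1, fell from 370.3 ± 19.3 to 174 ± 8.28 CPM (log2FC -1.09, SE 0.0498, adjusted p = 7.7e-08). MYEOV had 29, 34, 44 and 50 counts in 2D-primed and 4, 2, 1 and 5 counts in 3D-primed libraries, so it passed the filter only through the former. It is 1 of the 4 called lower, and the median of the list includes it. FADD, an adaptor of death receptors, rose from 12.1 ± 0.923 to 18.2 ± 0.279 CPM (0.59, adjusted p = 1.4e-05). FGF4 and FGF3 had 0 counts in every library. The call of CTTN was lost under 9 of the 17 alternatives, with adjusted p up to 0.28.

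Levels of different genes were compared as CPM per kb of the longest coding transcript. In 2D-primed cells the order was FGFR4 at 131 ± 3.41, CYP27A1 at 104 ± 3.50, NR0B2 at 61.2 ± 6.75, KLB at 19.1 ± 1.37, NR1H4 at 4.01 ± 0.588, CYP8B1 at 1.21 ± 0.306 and CYP7A1 at 0.777 ± 0.141 CPM per kb. CYP8B1 and CYP7A1 overlapped, and ABCB11, FGF19, SLC10A1 and CYP7B1 lay at or below 0.0810 CPM per kb. In 3D-primed cells NR0B2, at 149 ± 17.7, CYP27A1, at 130.2 ± 8.76, and FGFR4, at 128 ± 9.42 CPM per kb, could not be ordered beyond their spread. Below them came KLB at 23.4 ± 1.79, NR1H4 at 18.0 ± 1.34, CYP7A1 at 5.21 ± 0.299 and CYP8B1 at 3.82 ± 0.595 CPM per kb. With the merged exon length in place of that transcript, FGFR4 was at 84.3 and 82.4 and CYP27A1 at 65.8 and 82.7 CPM per kb in 2D-primed and 3D-primed cells, which puts NR0B2 first in the latter and makes CYP27A1 and NR0B2 overlap in the former. CYP27A1 remained far above CYP7A1 in level in both groups, although CYP7A1 had the larger difference.

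By the root mean square difference of centred log2 CPM over the 8 libraries, the protein-coding genes most like CYP7A1, among 9935 with a mean of at least 5 CPM, were HMGCS1, LSS and ACAT2, at 0.109, 0.122 and 0.133. HMGCS1 and LSS encode enzymes of cholesterol synthesis and ACAT2 an acetyl-CoA acetyltransferase. HMGCS1 stood at 109.5 ± 17.7 and 632 ± 10.96 CPM in 2D-primed and 3D-primed cells. LSS stood at 37.5 ± 7.25 and 243 ± 8.82 CPM, and ACAT2 at 64.9 ± 9.45 and 384 ± 23.3 CPM. The groups lay far apart for these genes, so the measure mostly reflects a similar difference between groups and is no separate sign of shared behaviour. FGF19 was too scarce for the same search.

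The labelled cell type was compared with its markers. Of 7 hepatocyte markers all were detected, with ALB the most abundant, and their summed level was 68668 to 74721 CPM in 2D-primed and 96107 to 108106 CPM in 3D-primed libraries. ALB, APOA1, TTR, AFP and TF rose and APOB and SERPINA1 fell, the last a call lost without the filter and with replicate numbers as a block. Bile duct markers were also detected. Their summed level was 1015 to 1127 CPM in 2D-primed and 557 to 697 CPM in 3D-primed libraries. The 5 of 7 that were tested fell, where 31.6% of all genes tested were called lower in 3D-primed cells. SOX9, the most abundant, fell by 0.74 and KRT19 by 1.67 in log2 terms (edgeR adjusted p = 2.3e-06 and 8.0e-08). SPP1 lost its call without 2D-primed replicate 3 or 3D-primed replicate 2. KRT7 and CFTR, which define mature duct cells, had at most 2 counts and 1 count in a library. In these bulk samples of 1 cell line, fewer cells that express a marker and less of its RNA per cell cannot be told apart. Genes of mitochondrial DNA took 1.40% to 1.81% of counts in 2D-primed and 2.47% to 2.98% in 3D-primed libraries. The hepatocyte markers, the duct markers and the mitochondrial share moved with the same groups as the bile acid genes, and their part in those differences was not tested.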

How the data were processed

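The authors quantified polyadenylated RNA with Salmon on the Ensembl human cDNA set, summed transcripts to genes with tximport, and deposited estimated counts, 1 file per library, as whole numbers unscaled for depth. The tximport length setting is not given in the sources used here. Identifiers were matched to GENCODE annotation of GRCh38 (34977 of 38032, with 97.5% of counts). Genes with 10 or more counts in at least 2 libraries were tested in edgeR 4.0.16 (R 4.3.3) with TMM factors, glmQLFit and glmQLFTest, on all 8 libraries without covariates. Alternatives comprised DESeq2 1.42.0, limma-voom (limma 3.58.1), other scalings and filters, a replicate block and leaving out each library. Libraries of 1 group differed by 6.34 to 17.4 in chi-square per degree of freedom, beyond counting noise. The 10 genes, 6 lists and the markers were chosen from general knowledge, with earlier results of these data known. The genes named from lists are the 3 with the smallest p per list and those at least 4-fold apart with a mean of 1 CPM or more. Other genes named illustrate roles and were chosen after their values were seen. Code was tested on simulated data. Replicate numbers did not pair libraries. Some listed genes are not reported here by name, though list counts and sums include them.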

Additional observations from a re-analysis of the deposited data

Results flagged for a closer look

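In 76 groups of 4 libraries, 7 held a value whose gap to its nearest neighbour was large against the group's range (Dixon's 95% critical value), and chance flags about 1 in 20 groups. In 2D-primed replicate 3, ACOX2 was low at 13.5 CPM (the others 16.3 to 16.5), AKR1D1 was low at 6.72 CPM (the others 9.16 to 9.55) and ABCG5 was low at 5.90 CPM (the others 6.92 to 7.06). The log2 ratio of FGFR4 to KLB was high in the same library, at 1.95, with the others at 1.78. In 3D-primed replicate 1, SLC27A2 was high at 57.3 CPM (the others 47.4 to 48.2), as was the log2 ratio of NR0B2 to NR1H4, at 1.97 (the others 1.65 to 1.67). In 3D-primed replicate 2, PPARA was low at 75.8 CPM (the others 85.5 to 86.9).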

How the results depend on the processing

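Over the alternatives run, 8357 to 9070 genes were called differentially expressed, and 5 to 7 of the 10 bile acid genes were called higher and 0 lower in 3D-primed cells. CYP7A1, CYP8B1, CYP27A1, NR1H4 and NR0B2 kept their direction and call under every alternative that tested them, and ABCB11 stayed uncalled. The count of 5 came from requiring 10 counts in all 8 libraries, which leaves CYP7B1 and ABCB11 untested. The count of 7 came from testing without a filter, where SLC10A1 had a log2 fold change of 1.53 (SE 0.541, edgeR adjusted p = 0.036) and FGF19 of -0.66 (adjusted p = 0.58). The log2 fold change of FGFR4 was 0.017 with upper quartile scaling and -0.069 to 0.0047 when single libraries were left out, the higher value without 3D-primed replicate 3. Synthesis enzymes called lower in 3D-primed cells numbered 1 to 2 when single libraries were left out, the lower count without 2D-primed replicate 1, 2D-primed replicate 2 or 3D-primed replicate 4, where BAAT lost its call.

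Leaving out single libraries gave log2 fold changes of 2.63 to 2.83 for CYP7A1 and 2.08 to 2.25 for NR1H4. The log2 ratio differences ran from 2.31 to 2.51 for CYP7A1/CYP27A1, -1.16 to -0.96 for CYP8B1/CYP7A1, -0.97 to -0.83 for NR0B2/NR1H4 and -0.35 to -0.28 for FGFR4/KLB, in designs whose smallest exact permutation p is 0.057. Same-numbered libraries did not deviate together (correlations of -0.043, -0.014, 0.057 and 0.0062). With the replicate block 8490 genes were called and no call of the tested bile acid genes changed. Over 4 pairs the ratio differences under the block stayed at 2.42, -1.07, -0.89 and -0.33 in the same order, at the smallest exact permutation p of that design, 0.125. The difference for CYP7B1/CYP27A1, which has no test, was 1.97 under the block and 1.75 to 2.24 without single libraries.

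Depth limits SLC10A1, FGF19, CYP7B1 and ABCB11, for which 3 counts correspond to 0.108 to 0.137 CPM.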

Other observations

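Markers of other cell types were detected in part, and their calls stand beside 63.9% of all genes tested called in either direction. Of 6 ileal enterocyte markers 3 were tested, of which FABP2 was called higher and VIL1 and APOA4 lower in 3D-primed cells, with a summed level of 476 to 510.4 CPM in 2D-primed and 380 to 410.2 CPM in 3D-primed libraries, mostly VIL1. The call of APOA4 was lost under 6 of the 17 alternatives. SLC10A2, FABP6 and CDX2, which define the ileal cell, had at most 1, 2 and 4 counts in a library. Of 5 stellate or fibroblast markers, PDGFRB, the most abundant, was called higher and COL1A1 lower in 3D-primed cells, the latter with 16 to 28 counts in 2D-primed and 0 to 3 in 3D-primed libraries, so that it passed the filter only through the former, with a sum of 10.99 to 12.2 against 15.1 to 18.1 CPM. Of 4 endothelial markers, VWF was called higher, a call lost under 7 of the 17 alternatives, and CDH5 lower, with a sum of 5.58 to 7.68 against 4.16 to 5.70 CPM and STAB2 at 0. Of 4 immune markers, LYZ and CD74 were called higher, with a sum of 2212 to 2310 CPM, mostly LYZ, against 2481 to 3121 CPM, while PTPRC had at most 2 counts and CD163 none.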
